A study of Mus musculus with 14 samples.

Results

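The collagen genes encode the chains of a family of secreted and membrane proteins that fold as trimers and carry most of the strength of connective tissue. They were taken here as every gene in the platform annotation whose symbol reads Col, a number, a and a number. This rule found 42 of the 18193 genes that the annotation names by a single symbol, and 37 of the 42 were measured among 13579 genes in all. RNA came from skeletal muscle precursor cells of C57BL/6 mice, sorted from myofibre-associated cells as CD45-Ter119-Sca-1-CD29+Cxcr4+. Satellite cells, which rebuild muscle after injury, are enriched by this gate. The 14 arrays were 5 of young mice (2 months), 4 of middle-aged mice (12 months) and 5 of aged mice (24 months), with no treatment or transgene in their labels. The design asks which transcripts change with age in these cells. The labels do not say whether an array is 1 animal or a pool, so the p-values speak only of the spread among these 14 samples, and some of it may be technical.

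Satellite cells lie between the muscle fibre and its basement membrane, a sheet built on type IV collagen. Outside it are type VI collagen, whose loss causes muscle disease, and the fibrils of types I, III and V. FACIT collagens (fibril-associated collagens with interrupted triple helices) sit on such fibrils, multiplexins on basement membranes, and the short-chain types VIII and X form lattices. Chains are hydroxylated and folded in the endoplasmic reticulum, trimmed by proteases outside the cell, and cross-linked by lysyl oxidases. In mouse satellite cells, type V collagen acts through the calcitonin receptor Calcr to keep the cells quiescent.

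Each value is the log2 of a deposited intensity, and array medians of the intensity ran from 19.01 to 21.24. A gene counted as measured when 1 of its probe sets exceeded the array's 40th percentile on at least 4 arrays. Arrays of 1 age correlated at r = 0.962 to 0.989 over all probe sets. The satellite cell markers (9 of 9 measured) averaged 9.94 to 10.17 (young), 9.49 to 9.98 (middle-aged) and 9.39 to 9.83 (aged). Ptprc, which encodes CD45, lay below the filter, as did Pecam1, Tie1 and Emcn of endothelium. Of the same marker lists, 5 of 7 macrophage and myeloid and 6 of 9 endothelial markers passed it. The first principal component of age-centred values, from which the age means were removed beforehand, held 31.5% of that variance. Its sign split 8 arrays (set 1: aged 1 and 2, middle-aged 2, 3 and 4, young 1, 3 and 4) from the other 6 (set 2). Middle-aged array 4 lay nearest to the split, at -5.62 on a range of -32.43 to 37.98, and the sets are not balanced over age. The sets are known only from the values and are no labelled batch. RNA quality was read from the Gapdh and Actb controls, whose 3' minus 5' log2 difference averaged 4.30 ± 0.54 (young), 3.85 ± 0.25 (middle-aged) and 3.54 ± 0.51 (aged; SD).

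In aged against young cells, 4 of the 37 measured collagen genes were higher (Col11a1, Col12a1, Col8a1 and Col8a2) and 1 was lower (Col15a1) at an adjusted p under 0.05 in limma with Benjamini-Hochberg adjustment over all 13579 genes. Of all genes, 3.05% were higher and 1.25% lower by the same rule. In middle-aged against young cells, 3 collagen genes were higher (Col11a1, Col12a1 and Col8a2) and 0 lower, where 1.75% of all genes were higher and 1.22% lower. At an unadjusted p under 0.05, 17 collagen genes passed in aged against young cells, against 16.6% of all genes, and 12 in middle-aged against young cells, against 16.3% of all genes. The median log2 change of the 37 genes was -0.06 in aged against young cells, beside -0.05 over all genes. It was 0.09 in middle-aged against young cells, beside -0.04 over all genes. Both comparisons use the same 5 young arrays. The 5 genes called in aged against young cells were 1 of 10 measured fibrillar, 1 of 8 FACIT, 2 of 3 short-chain network and 1 of 2 multiplexin genes. Col11a1 and Col8a2 were above the 40th percentile on fewer than 4 young arrays and entered the fit through the older ones. With a filter that asks for all 14 arrays both drop out, and 2 genes were higher in aged against young cells. In bulk RNA, fewer cells of a type and less RNA per cell cannot be told apart.

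Markers of some other cell types moved with these genes. The lists were chosen with earlier results of these data known, so their counts are a description. Beside them, 3.05% of all genes were higher and 1.25% lower in aged against young cells. In middle-aged against young cells these shares were 1.75% and 1.22%. Of 10 tenocyte markers, all measured and none a collagen gene, 8 were higher and 0 lower in both comparisons with young cells, and their mean log2 value ran from 6.67 to 7.999 (young), 9.41 to 10.92 (middle-aged) and 9.39 to 10.54 (aged). Of 13 measured fibro-adipogenic and fibroblast markers, 4 were higher in aged and 3 in middle-aged than in young cells, with means of 7.70 to 7.95 (young), 8.23 to 9.06 (middle-aged) and 8.03 to 9.34 (aged). Of 8 mature myofibre markers, 8 were higher in aged and 0 in middle-aged than in young cells. Of 5 measured macrophage and myeloid markers, 1 (Cd14) was higher in both comparisons, and the list's mean ran from 5.02 to 5.35 (young), 5.41 to 5.83 (middle-aged) and 5.57 to 6.18 (aged), with every older array above every young one. Ptprc and Itgam of that list were below the filter. Of 9 pericyte and smooth muscle markers, 1 (Pdgfrb) was higher in both comparisons, and of 5 Schwann and glial markers 1 (Scn7a) was higher in aged cells, with means that overlapped between aged and young arrays. Of 6 measured endothelial markers, 1 (Tek) was lower in aged than in young cells. Of 9 satellite cell markers, 2 were lower in aged than in young cells. The middle-aged array with the highest tenocyte mean was array 3, also the highest for Col11a1, Col12a1, Col8a2, Col1a1 and Col1a2. The lowest aged tenocyte mean was that of array 4, the lowest aged array for Col11a1, Col12a1 and Col6a3. Col8a1 ran the other way: aged array 4 was its highest, at 10.39, and its highest middle-aged array was array 4, at 9.12. The part of these markers in the collagen results was not tested. Of 6 chondrocyte markers, 3 were measured and 0 called, with Sox9 at 7.09 to 8.24 over the 14 arrays, while Matn1, Hapln1 and Cnmd lay below the filter.

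**Figure D1:**
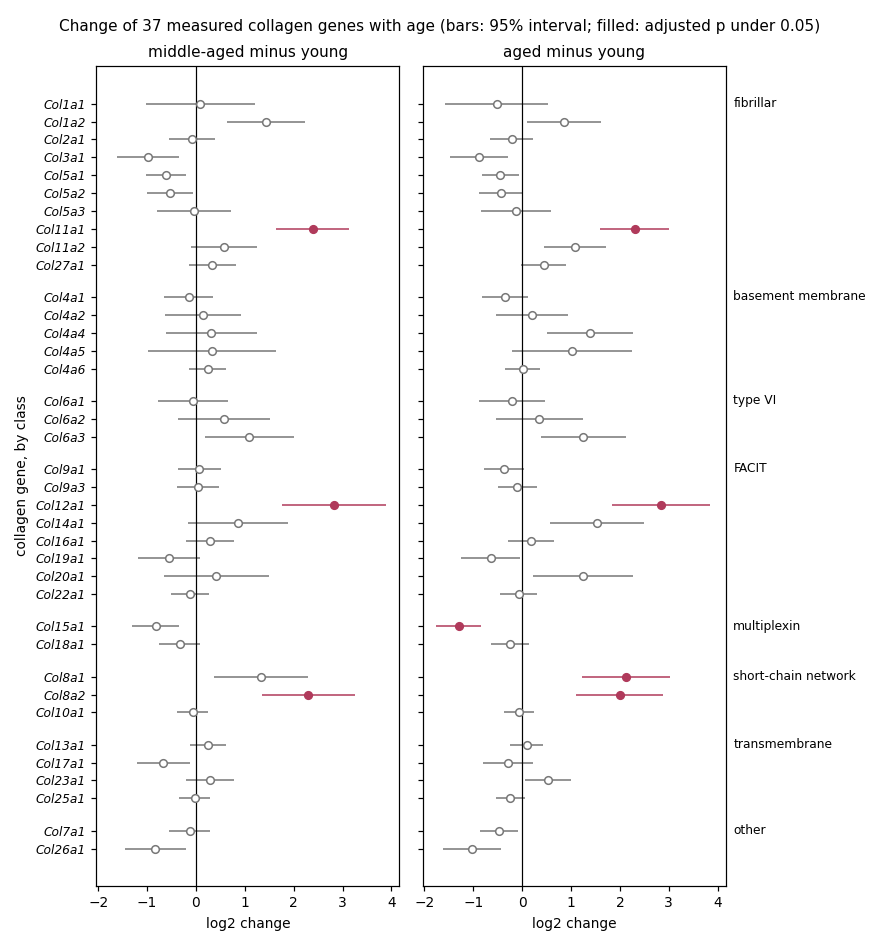
Log2 change of each of the 37 measured collagen genes, by class, in middle-aged minus young cells (left) and aged minus young cells (right), with 95% intervals from limma. Filled points have an adjusted p under 0.05 over all genes: Col11a1, Col12a1 and Col8a2 lie above 0 in both panels, and Col8a1 (above 0) and Col15a1 (below 0) are filled only on the right.

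The start regions of genes called in aged against young cells are shown because the called changes turn on these genes. RefSeq's table for GRCm38.p6 held 4 of the 5 genes, all but Col12a1, and the 250 bases before each annotated start are printed 5′ to 3′ on the gene's own strand. Capitals mark GGGCGG or its reverse complement CCGCCC, the core of the GC box bound by Sp1, with overlapping matches joined. The windows are chr3:114030290-114030539 (plus strand) for Col11a1, chr16:57754738-57754987 (minus strand) for Col8a1, chr4:126286544-126286793 (plus strand) for Col8a2 and chr4:47207762-47208011 (plus strand) for Col15a1.
Col11a1: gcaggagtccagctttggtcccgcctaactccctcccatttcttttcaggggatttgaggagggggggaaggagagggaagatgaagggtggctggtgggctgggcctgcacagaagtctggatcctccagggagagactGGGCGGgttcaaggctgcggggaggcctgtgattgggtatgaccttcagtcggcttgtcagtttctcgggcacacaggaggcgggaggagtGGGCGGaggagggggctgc
Col8a1: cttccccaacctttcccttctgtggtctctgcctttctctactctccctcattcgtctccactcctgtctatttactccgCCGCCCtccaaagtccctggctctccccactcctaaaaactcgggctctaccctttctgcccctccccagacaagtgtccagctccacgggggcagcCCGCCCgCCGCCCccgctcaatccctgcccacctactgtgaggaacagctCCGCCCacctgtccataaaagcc
Col8a2: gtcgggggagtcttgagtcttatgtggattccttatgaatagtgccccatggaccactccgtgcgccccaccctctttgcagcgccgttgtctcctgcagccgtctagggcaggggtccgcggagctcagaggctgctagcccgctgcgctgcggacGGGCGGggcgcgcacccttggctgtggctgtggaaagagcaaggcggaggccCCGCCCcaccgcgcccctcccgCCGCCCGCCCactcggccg
Col15a1: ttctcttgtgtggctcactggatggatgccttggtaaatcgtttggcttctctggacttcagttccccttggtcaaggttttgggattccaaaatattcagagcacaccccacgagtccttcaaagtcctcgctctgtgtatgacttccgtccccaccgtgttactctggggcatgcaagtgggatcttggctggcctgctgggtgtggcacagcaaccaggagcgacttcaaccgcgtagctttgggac
The motif was found 2 times before Col11a1, 4 times before Col8a1 and 4 times before Col8a2, and 0 times before Col15a1. Of all 32817 windows of 250 bases in the table, 32.7% hold it on either strand. Among the 29 measured collagen genes with a window, called or not, 17 hold it. CCAAT on either strand was found before Col11a1 only, and is in 33.8% of all windows. TATAAA on either strand was in 0 of the 4 windows and is in 12.4% of all. A match is a description of these letters and was not tied to the expression values.

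Of the fibrillar class, 10 of 11 genes were measured, and 1 of them, Col11a1, was called in either comparison with young cells. Col11a1 (Entrez 12814) encodes a chain of type XI collagen, a minor collagen inside the fibrils of cartilage and developing tendon. Col11a1 had log2 values of 4.24, 3.57, 3.53, 4.89 and 4.91 on young arrays 1 to 5, 6.64, 6.17, 7.45 and 6.21 on middle-aged arrays 1 to 4, and 6.72, 6.70, 7.11, 5.87 and 6.26 on aged arrays 1 to 5. Every middle-aged and every aged array lay above every young array. The log2 change was 2.30 ± 0.33 (SE) in aged against young cells (4.93-fold, limma adjusted p = 0.00097) and 2.39 ± 0.35 in middle-aged against young cells (5.24-fold, adjusted p = 0.00192). Only 3 of 5 young arrays lay above the 40th percentile, so the fold is imprecise; at log2(value + 16), which damps differences of dim probe sets, the changes were 1.62 and 1.70 and both passed. Its other kept probe set gave 2.11 ± 0.59 in aged against young cells (limma adjusted p = 0.066 over all kept probe sets). In middle-aged against young cells that probe set gave 1.95 ± 0.62 (adjusted p = 0.136). On it, middle-aged array 2 (3.865) and aged array 1 (5.226) lay within the young range of 3.329 to 5.229.

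The main fibril chains were high at every age and were not called in the fit of all 14 arrays. Col3a1, of the type III fibrils found beside type I in pliable tissue, averaged 12.44 ± 0.43 (young), 11.46 ± 0.30 (middle-aged) and 11.56 ± 0.63 (aged) (SD, n = 5, 4 and 5). Its change was -0.88 ± 0.28 (SE) in aged against young cells (limma adjusted p = 0.097) and -0.98 ± 0.30 in middle-aged against young cells (adjusted p = 0.0956). The middle-aged against young change of Col3a1 passed in 4 of 28 alternative settings. Aged array 1, at 10.63, was the lowest of all 14, while aged arrays 2 and 3 overlapped the young ones. Col5a1 and Col5a2, which build the type V collagen that starts fibrils, had changes of -0.44 and -0.43 in aged against young cells, and Col5a3 of -0.13. The same 3 in middle-aged against young cells were -0.61, -0.54 and -0.04. Another probe set of Col5a2 gave larger falls, -1.003 and -1.14 for the same comparisons. Neither passed (limma adjusted p = 0.0722 and 0.0687 over all kept probe sets). The other kept probe sets of Col5a1 gave -0.73 and -0.32 in aged against young cells. In middle-aged against young cells they gave -0.62 and 0.006. The middle-aged against young change of Col5a1 passed in 3 of 28 alternative settings.

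The result for type I collagen, the chief protein of tendon and bone fibrils, depends on the probe set. Col1a2 averaged 11.69 ± 0.57 (young), 13.13 ± 0.49 (middle-aged) and 12.55 ± 0.76 (aged) by its brightest probe set, a change of 0.85 in aged against young cells (limma adjusted p = 0.222) and 1.43 in middle-aged against young cells (adjusted p = 0.052). All 4 middle-aged arrays lay above all 5 young ones on this probe set, whose name carries _a_, the mark of probes shared by several transcripts of the gene. The middle-aged against young change passed in 10 of 28 alternative settings, array weights (1.38, adjusted p = 0.016) and array set as a term (1.35, adjusted p = 0.034) among them. Another probe set of Col1a2 gave -0.30 and -0.02 for the same comparisons. Col1a1 averaged 9.57 ± 0.64 (young), 9.66 ± 0.91 (middle-aged) and 9.04 ± 1.08 (aged), with changes of -0.52 and 0.09, and its other probe set gave 0.14 and 0.66. Middle-aged array 3 was the highest array for both genes. Aged array 4 was the lowest for Col1a1.

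Of the other fibrillar genes, Col11a2, a second type XI chain, averaged 5.01 ± 0.77 on aged arrays and 3.93 ± 0.16 on young arrays, and ran from 4.12 to 5.11 on middle-aged ones, with a change of 1.09 in aged against young cells (limma adjusted p = 0.0532) and 0.57 in middle-aged against young cells. Aged array 4, at 4.06, lay within the young range for it, and without that array Col11a2 passed the test (1.32, adjusted p = 0.0118). It passed in 10 of 27 alternative settings, among them quantile normalization, median centring and array weights. Only 3 of 5 young arrays lay above the 40th percentile for Col11a2, so it too entered the fit through the older arrays. Its lowest middle-aged value, 4.12, was barely above its highest young value, 4.10. The cartilage genes Col2a1 and Col27a1 had changes of -0.21 and 0.44 in aged against young cells and -0.08 and 0.34 in middle-aged against young cells. Col24a1 lay below the filter, with log2 values of 2.45 to 3.27.

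**Figure D2:**
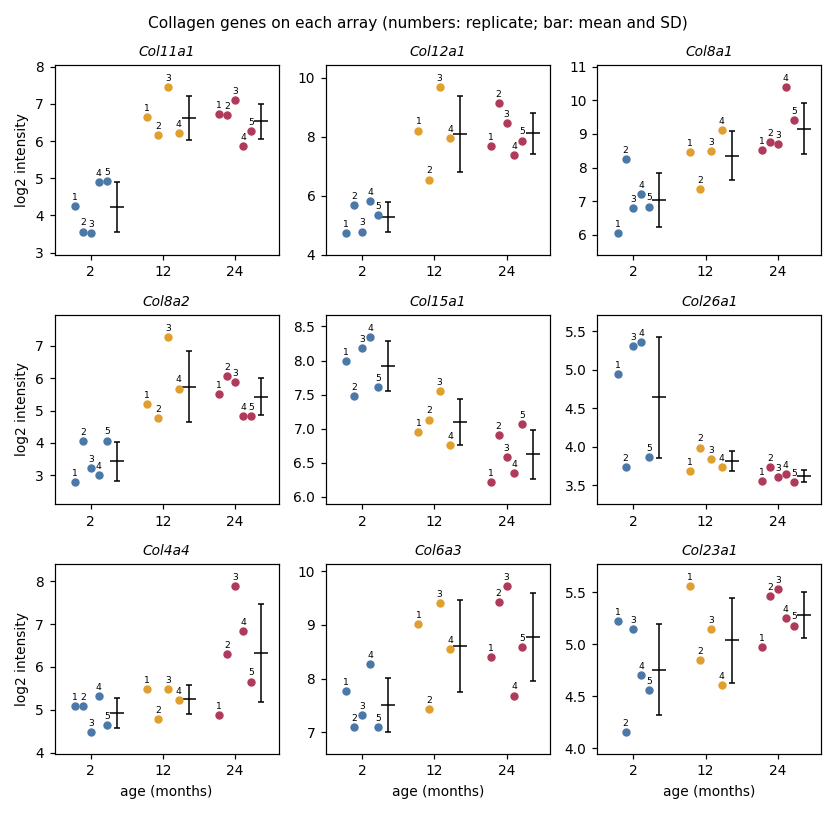
Log2 intensity of 9 collagen genes on each array, by age in months, with replicate numbers beside the points and the mean and SD at the right of each group. Col11a1, Col12a1 and Col8a2 are higher on all middle-aged and aged arrays than on the young ones, Col15a1 is lower on all aged arrays, and young Col26a1 falls into a high group (arrays 1, 3 and 4) and a low one (arrays 2 and 5).

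Of the basement membrane class (type IV), 5 of 6 genes were measured and 0 were called in any pairwise comparison by limma at an adjusted p under 0.05, with 1 at an unadjusted p under 0.05 in aged against young cells. Col4a1 and Col4a2, the chains of the network found in nearly all basement membranes, share a start region. Col4a1 averaged 11.71 ± 0.55 (young), 11.56 ± 0.21 (middle-aged) and 11.36 ± 0.20 (aged) and Col4a2 averaged 8.89 ± 0.87 (young), 9.04 ± 0.43 (middle-aged) and 9.10 ± 0.39 (aged). Their changes in aged against young cells were -0.35 and 0.21. The pair Col4a5 and Col4a6 also shares a start region, and its changes were 1.02 and 0.01. The 4 changes in middle-aged against young cells were -0.15, 0.15, 0.33 and 0.24.

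Col4a4, a chain of the specialised network known from the kidney, had the smallest aged against young p of the class. Col4a4 had log2 values of 5.10, 5.08, 4.48, 5.32 and 4.63 on young arrays 1 to 5, 5.47, 4.77, 5.48 and 5.23 on middle-aged arrays 1 to 4, and 4.88, 6.30, 7.88, 6.84 and 5.66 on aged arrays 1 to 5. Aged arrays 2 to 5 lay above every young array and aged array 1 lay within the young range. The change was 1.39 ± 0.41 (SE, limma adjusted p = 0.075) in aged against young cells and 0.32 ± 0.44 in middle-aged against young cells. Without aged array 1 the aged against young change of Col4a4 was 1.75 and passed (adjusted p = 0.0121), as it did with the mean of its probe sets (0.96, adjusted p = 0.0221) and with array weights (1.44, adjusted p = 0.0401). Another probe set of Col4a4 gave 0.52 and 0.59. Its partner Col4a3, which shares its start region, lay below the filter, above the 40th percentile on at most 2 arrays. Aged array 3, the highest for Col4a4, was also the highest for Col4a5 and for the endothelial markers, whose mean ran from 4.89 to 6.90 on aged and from 5.22 to 5.56 on young arrays. Other aged arrays ran the other way. Array 4, next highest for Col4a4 at 6.84, had the lowest endothelial mean of all 14 arrays, 4.89. Array 5, next highest for Col4a5 at 6.71, had an endothelial mean of 4.91. The part of those markers in these values was not tested.

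Type VI collagen, a beaded microfibril around muscle fibres, was measured by 3 of 5 genes, and 0 were called by limma at an adjusted p under 0.05, with 1 at an unadjusted p under 0.05 in each comparison with young cells. Col6a1 averaged 10.39 ± 0.54 (young), 10.33 ± 0.66 (middle-aged) and 10.18 ± 0.51 (aged), and Col6a2 averaged 9.87 ± 0.71 (young), 10.44 ± 0.71 (middle-aged) and 10.22 ± 0.80 (aged). Their changes in aged against young cells were -0.21 and 0.35, and -0.06 and 0.57 in middle-aged against young cells. Col6a3, the longest chain, had log2 values of 7.77, 7.10, 7.33, 8.26 and 7.10 on young arrays 1 to 5, 9.02, 7.44, 9.41 and 8.55 on middle-aged arrays 1 to 4, and 8.41, 9.43, 9.72, 7.69 and 8.59 on aged arrays 1 to 5. Aged array 4 and middle-aged array 2 lay within the young range, and the other older arrays lay above it. The change of Col6a3 was 1.25 ± 0.41 (SE, limma adjusted p = 0.103) in aged against young cells and 1.09 ± 0.43 (adjusted p = 0.208) in middle-aged against young cells. Col6a4 and Col6a5 lay below the filter.

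Of the FACIT class, 8 of 9 genes were measured and Col12a1 was called in both comparisons with young cells. Col12a1 (Entrez 12816) encodes type XII collagen, which binds the surface of type I fibrils in tendon, fascia and muscle. Col12a1 had log2 values of 4.74, 5.68, 4.78, 5.82 and 5.35 on young arrays 1 to 5, 8.21, 6.55, 9.69 and 7.95 on middle-aged arrays 1 to 4, and 7.69, 9.15, 8.47, 7.39 and 7.87 on aged arrays 1 to 5. Every middle-aged and every aged array lay above every young array, and the middle-aged arrays spread widest. The change was 2.84 ± 0.47 (SE) in aged against young cells (7.16-fold, limma adjusted p = 0.00236) and 2.83 ± 0.50 in middle-aged against young cells (7.09-fold, adjusted p = 0.00592). The other kept probe set of Col12a1 was the brighter one on young arrays, with a mean of 6.18 against 5.27. The probe set used was chosen through its high values on older arrays. The other one gave a smaller change of 0.59 ± 0.27 in aged against young cells (limma adjusted p = 0.311 over all kept probe sets). In middle-aged against young cells it gave 0.59 ± 0.29 (adjusted p = 0.364). The mean of both probe sets gave 1.72 in aged against young cells (adjusted p = 0.00777). The median change over the class was 0.05 in aged against young cells and 0.18 in middle-aged against young cells.

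Col14a1, of type XIV collagen in tendon and skin, averaged 4.35 ± 0.37 (young), 5.22 ± 0.73 (middle-aged) and 5.89 ± 1.15 (aged). Its aged arrays, from 4.79 to 7.59, lay above its young ones, from 3.79 to 4.72, with a change of 1.53 ± 0.46 (SE, limma adjusted p = 0.0768), which did not pass. The other kept probe set of Col14a1 gave 0.52 ± 0.18 (limma adjusted p = 0.145 over all kept probe sets). On it the groups overlapped: aged arrays 4 (4.12) and 5 (3.99) lay within the young range of 3.73 to 4.18. Groups that do not overlap were found in aged against young cells for 5 collagen genes above, the 4 called and Col14a1, and 1 below, Col15a1, against 3.48% and 1.97% of all genes. Between middle-aged and young cells they were found for 5 above (Col11a1, Col11a2, Col12a1, Col1a2 and Col8a2) and 0 below, against 3.62% and 5.07% of all genes. Col19a1, a FACIT of muscle basement membrane zones, averaged 8.003 ± 0.41 (young), 7.45 ± 0.61 (middle-aged) and 7.36 ± 0.48 (aged), with a change of -0.65 in aged against young cells (adjusted p = 0.259). Col20a1 averaged 6.89 ± 0.21 (young), 7.31 ± 0.81 (middle-aged) and 8.14 ± 1.24 (aged), and aged arrays 1 and 4, at 9.89 and 8.96, stood above the others. The changes of Col9a1 and Col9a3 (cartilage), Col16a1 and Col22a1 (the muscle and tendon junction) were -0.37, -0.10, 0.18 and -0.07 in aged against young cells. Between middle-aged and young cells those of Col9a1, Col9a3, Col16a1, Col19a1, Col20a1 and Col22a1 were 0.07, 0.05, 0.29, -0.55, 0.42 and -0.12, and none passed. Col9a2 lay below the filter.

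Among short-chain network collagens, both type VIII genes rose in aged against young cells. Type VIII collagen forms a hexagonal lattice in Descemet's membrane of the eye and in vessel walls. Col8a1 (Entrez 12837) had log2 values of 6.06, 8.25, 6.80, 7.21 and 6.84 on young arrays 1 to 5, 8.46, 7.36, 8.48 and 9.12 on middle-aged arrays 1 to 4, and 8.53, 8.76, 8.71, 10.39 and 9.41 on aged arrays 1 to 5. All aged arrays lay above all young ones, and aged array 4 was the highest. The change was 2.13 ± 0.43 (SE, 4.37-fold, limma adjusted p = 0.00918) in aged against young cells. In middle-aged against young cells it was 1.32 ± 0.45, which did not pass (adjusted p = 0.144), and young array 2 lay inside the middle-aged range. A second probe set of Col8a1 gave 2.22 ± 0.35 in aged against young cells (adjusted p = 0.0023 over all kept probe sets).

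Col8a2 (Entrez 329941) had log2 values of 2.79, 4.07, 3.24, 3.01 and 4.07 on young arrays 1 to 5, 5.21, 4.77, 7.28 and 5.68 on middle-aged arrays 1 to 4, and 5.52, 6.07, 5.88, 4.84 and 4.84 on aged arrays 1 to 5. Every older array lay above every young one, and middle-aged array 3 was the highest. The change was 1.99 ± 0.42 (SE, limma adjusted p = 0.0121) in aged against young cells and 2.30 ± 0.45 (adjusted p = 0.0117) in middle-aged against young cells. Only 2 of 5 young arrays lay above the 40th percentile, so no fold is given. At log2(value + 16) the changes were 1.13, which did not pass (adjusted p = 0.0614), and 1.39 (adjusted p = 0.0389). With the 3' minus 5' value of each array added to the fit, neither type VIII gene passed in aged against young cells: Col8a1 had a change of 1.40 (adjusted p = 0.109) and Col8a2 of 1.82 (adjusted p = 0.0822). Col10a1, of hypertrophic cartilage, averaged 3.90 ± 0.25 (young), 3.83 ± 0.12 (middle-aged) and 3.83 ± 0.19 (aged).

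The multiplexin class held the called fall. Col15a1 (Entrez 12819) encodes type XV collagen, which links basement membranes of muscle fibres and capillaries to the surrounding matrix. Col15a1 had log2 values of 7.99, 7.48, 8.18, 8.35 and 7.61 on young arrays 1 to 5, 6.95, 7.13, 7.55 and 6.76 on middle-aged arrays 1 to 4, and 6.21, 6.90, 6.58, 6.35 and 7.07 on aged arrays 1 to 5. Every aged array lay below every young array, and the middle-aged arrays lay mostly between, with array 3 inside the young range. The change was -1.30 ± 0.22 (SE, 2.46-fold lower, limma adjusted p = 0.00251) in aged against young cells and -0.82 ± 0.23 (adjusted p = 0.0667) in middle-aged against young cells. Col18a1, the other multiplexin and the source of endostatin, averaged 8.27 ± 0.33 (young), 7.94 ± 0.12 (middle-aged) and 8.02 ± 0.34 (aged), with a change of -0.25 in aged against young cells, and its other probe set gave -0.72.

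None of the 4 transmembrane collagens was called by limma, with 1 at an unadjusted p under 0.05 in each comparison with young cells. Col23a1, the one with the smallest aged against young p, had log2 values of 5.22, 4.16, 5.15, 4.70 and 4.56 on young arrays 1 to 5, 5.56, 4.85, 5.14 and 4.61 on middle-aged arrays 1 to 4, and 4.98, 5.47, 5.53, 5.25 and 5.18 on aged arrays 1 to 5. The 3 groups overlapped, and young array 2 was the lowest. The change of Col23a1 was 0.52 ± 0.22 (SE, limma adjusted p = 0.231) in aged against young cells. Col13a1 and Col25a1, known from the nerve and muscle junction, and Col17a1, of epithelial hemidesmosomes, had changes of 0.09, -0.24 and -0.29 in aged against young cells. The middle-aged against young changes of Col13a1, Col17a1, Col23a1 and Col25a1 were 0.25, -0.67, 0.28 and -0.03.

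Of the genes outside these classes, Col26a1, a secreted collagen first described in mouse testis and ovary, had log2 values of 4.94, 3.73, 5.31, 5.36 and 3.86 on young arrays 1 to 5, 3.68, 3.99, 3.83 and 3.74 on middle-aged arrays 1 to 4, and 3.55, 3.74, 3.60, 3.64 and 3.54 on aged arrays 1 to 5. Young arrays 1, 3 and 4 were high and young arrays 2 and 5 lay inside the middle-aged range. The change in aged against young cells was -1.02 ± 0.28 (SE), with a limma adjusted p that rounds to 0.05 and lies just above the threshold. Of the arrays above the 40th percentile for Col26a1, 4 were young, 1 was middle-aged and 0 were aged, so no fold is given. Within array set 1 the difference of aged minus young means was -1.56 (2 and 3 arrays), and within set 2 it was -0.20 (3 and 2 arrays). Col7a1, of the anchoring fibrils of skin, averaged 5.41 ± 0.26 (young), 5.28 ± 0.36 (middle-aged) and 4.94 ± 0.26 (aged), with changes of -0.47 in aged against young cells and -0.13 in middle-aged against young cells, neither of which passed.

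**Figure D3:**
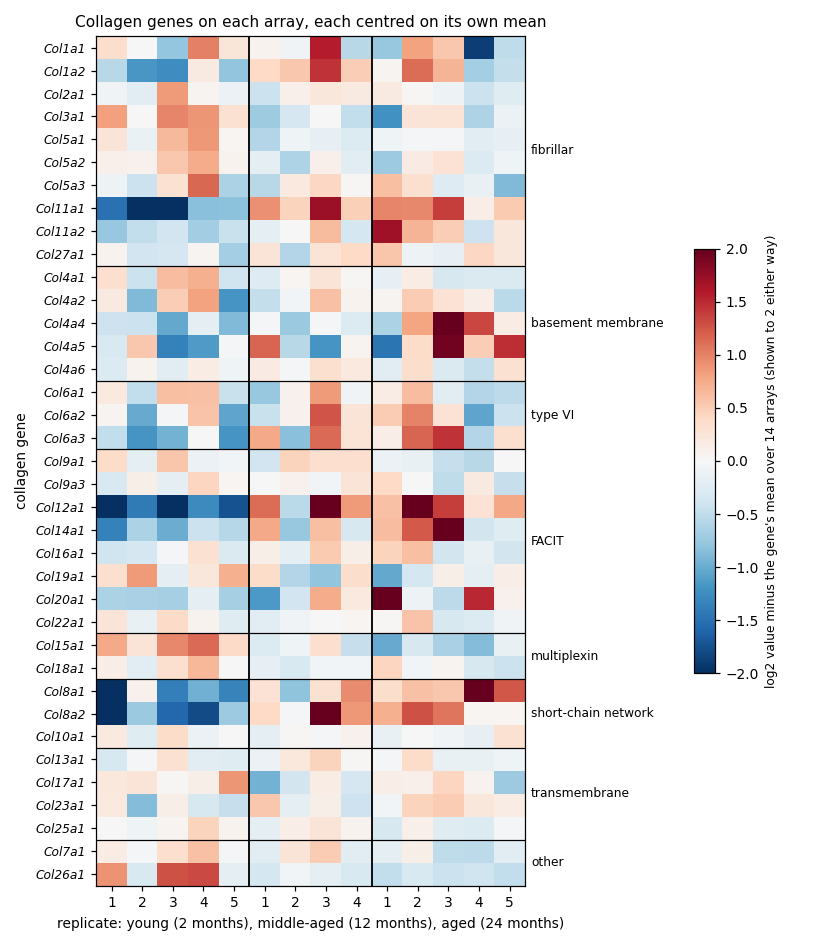
Log2 value of each measured collagen gene on each array minus that gene's mean over the 14 arrays, with genes by class down the side and arrays by age and replicate along the bottom. Rows of 1 class do not move as a block: Col11a1 and Col12a1 are blue on young arrays and red on older ones except Col12a1 on middle-aged array 2, Col15a1 and Col3a1 are redder on young arrays, and middle-aged array 3 is red for most fibrillar and type VI genes.

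Within both array sets the called genes had the same direction. That was fixed beforehand, because their groups do not overlap in the comparisons given, so only the sizes are read. In aged minus young means, Col11a1 differed by 2.49 in set 1 and 2.17 in set 2, Col12a1 by 3.30 and 2.40, Col8a1 by 1.95 and 1.96, Col8a2 by 2.78 and 1.11, and Col15a1 by -1.61 and -0.88. Each set holds 2 or 3 arrays of either age, so these are values without a test. In middle-aged minus young means, Col11a1 differed by 2.39 and 2.40, Col12a1 by 2.95 and 2.70 and Col8a2 by 2.90 and 1.14, where set 2 holds 1 middle-aged array.

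In aged against middle-aged cells, 0 of 37 collagen genes passed in limma, as did 0 of 13579 genes (0%). At an unadjusted p under 0.05, 2 collagen genes passed (Col4a4 and Col9a1), against 9.62% of all genes. The aged minus middle-aged log2 change was -0.09 for Col11a1, 0.01 for Col12a1, -0.30 for Col8a2, 0.80 for Col8a1 and -0.48 for Col15a1. The difference between the late step (aged minus middle-aged) and the early step (middle-aged minus young) was itself tested, and 0 collagen genes and 0% of all genes passed, with 6 collagen genes and 11.9% of all genes at an unadjusted p under 0.05. An F test over the 3 ages called 5 collagen genes, against 4.16% of all genes, and these were the 5 called in aged against young cells.

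Chains that join in the same trimer, or belong to the same collagen type, were set side by side on each array, for 10 pairs chosen after the values were seen and therefore given without a test. The log2 difference of a pair on an array mixes probe sets of unlike brightness, so its shift between ages is read and not its size. For type VI, Col6a3 minus Col6a1 was -2.04, -1.49, -0.35, -2.02 and -1.18 on aged arrays 1 to 5, against -2.73, -2.71, -3.58, -2.63 and -2.76 on young arrays 1 to 5. All 5 aged values lay above all 5 young ones, with a mean shift of 1.46. In middle-aged against young cells the shift was 1.15, and middle-aged array 2, at -2.94, lay within the young range.

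For type XI, Col11a2 minus Col11a1 was -2.34, -1.70, -2.34 and -2.09 on middle-aged arrays 1 to 4, against -0.51, 0.43, 0.57, -1.11 and -0.88 on young arrays 1 to 5. All middle-aged values lay below all young ones, a mean shift of -1.82, and the shift in aged against young cells was -1.22. Each of the 2 genes was above the 40th percentile on only 3 of 5 young arrays. At log2(value + 16) the shifts were smaller, -1.38 in middle-aged and -0.96 in aged against young cells. For type I, Col1a2 minus Col1a1 shifted by 1.38 in aged against young cells and by 1.34 in middle-aged against young cells with the brightest probe sets. With probe sets that carry no such mark these shifts were 0.22 and -0.11, so the type I pair gives no direction here. For type V, Col5a2 minus Col5a1 moved by 0.01 in aged against young cells and 0.08 in middle-aged against young cells. With the mean of probe sets these shifts were -0.22 and -0.43. For type VIII, Col8a2 minus Col8a1 shifted by -0.13 in aged against young cells and by 0.97 in middle-aged against young cells, with overlap in both. Col8a2 was above the 40th percentile on only 2 of 5 young arrays. At log2(value + 16) the shifts of this pair were -0.85 and 0.18, so their sizes depend on the log scale. The remaining 5 pairs (Col4a2 minus Col4a1, Col4a5 minus Col4a4, Col5a3 minus Col5a1, Col6a2 minus Col6a1 and Col9a3 minus Col9a1) shifted by 0.56, -0.38, 0.32, 0.56 and 0.27 in aged against young cells. The middle-aged against young shifts were 0.30, 0.01, 0.57, 0.64 and -0.02.

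**Figure D4:**
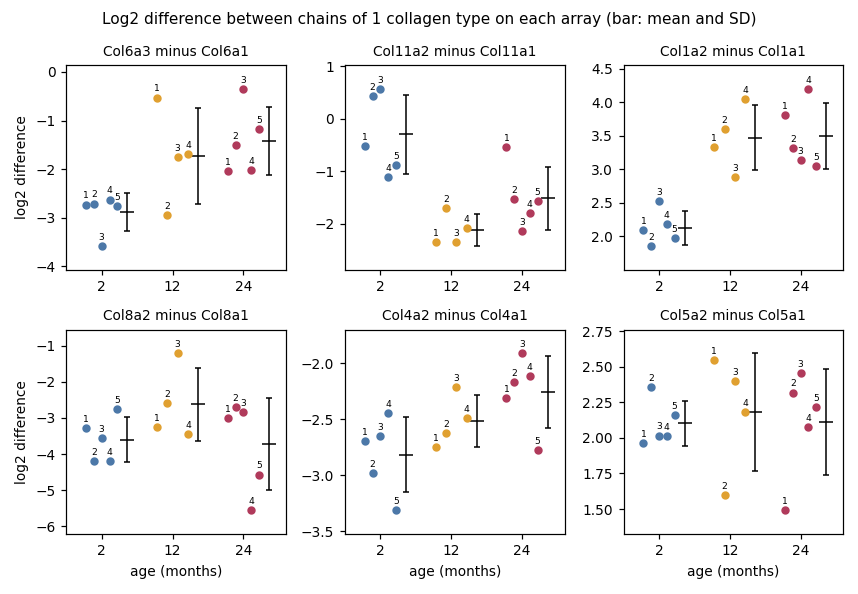
Log2 difference between chains of the same collagen type on each array, by age in months, for 6 pairs, with replicate numbers beside the points and the mean and SD at the right of each group. Col6a3 minus Col6a1 is higher on all aged than on all young arrays, Col11a2 minus Col11a1 is lower on all middle-aged than on all young arrays, and Col5a2 minus Col5a1 overlaps at all ages.

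Genes that process collagen were read from 3 lists. Beside their counts, 3.05% of all genes were higher and 1.25% lower in aged against young cells. In middle-aged against young cells these shares were 1.75% and 1.22%. Of 8 measured genes of propeptide removal and cross-linking, 4 were higher and 0 lower in aged against young cells, and 4 and 0 in middle-aged against young cells (limma adjusted p under 0.05), with median changes of 1.34 and 1.24. Lox, the lysyl oxidase that starts cross-links, had log2 values of 8.27, 9.18, 7.98, 8.31 and 8.85 on young arrays 1 to 5, 11.11, 10.12, 11.31 and 10.61 on middle-aged arrays 1 to 4, and 10.25, 11.28, 11.18, 10.35 and 10.38 on aged arrays 1 to 5. All older arrays lay above all young ones. Its change was 2.17 ± 0.29 (SE, 4.5-fold, limma adjusted p = 0.000576) in aged against young cells and 2.27 ± 0.31 (adjusted p = 0.00115) in middle-aged against young cells.

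Pcolce, which speeds removal of the C-propeptide, had log2 values of 10.10, 9.80, 9.58, 9.88 and 10.003 on young arrays 1 to 5, 11.14, 11.14, 12.73 and 11.66 on middle-aged arrays 1 to 4, and 11.75, 12.41, 12.22, 10.34 and 11.06 on aged arrays 1 to 5. Every older array was above every young array. Its change was 1.68 ± 0.37 in aged against young cells (limma adjusted p = 0.015) and 1.79 ± 0.39 in middle-aged against young cells (adjusted p = 0.0223). Loxl3 and Loxl4, further lysyl oxidases, changed by 1.58 ± 0.35 and 2.02 ± 0.44 in aged against young cells (adjusted p = 0.0157 and 0.0142). Their middle-aged against young changes were 1.45 ± 0.37 and 2.49 ± 0.46 (adjusted p = 0.0464 and 0.00894). In aged against young cells the calls of Lox, Pcolce, Loxl3 and Loxl4 held in all 28, 28, 28 and 27 alternative settings. The middle-aged against young calls held in 28 of 28 settings for Lox, 26 of 27 for Loxl4, 23 of 28 for Pcolce and 13 of 28 for Loxl3. Bmp1, the C-propeptide protease itself, ranged from 6.84 to 8.38 on aged and from 7.92 to 9.02 on young arrays, with a change of -0.83 that did not pass (adjusted p = 0.203). Of the other members, Pcolce2, Adamts3 and Loxl1 had changes of 1.11, 0.42 and -0.39 in aged against young cells, and Tll1 and Tll2 lay below the filter.

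**Figure D5:**
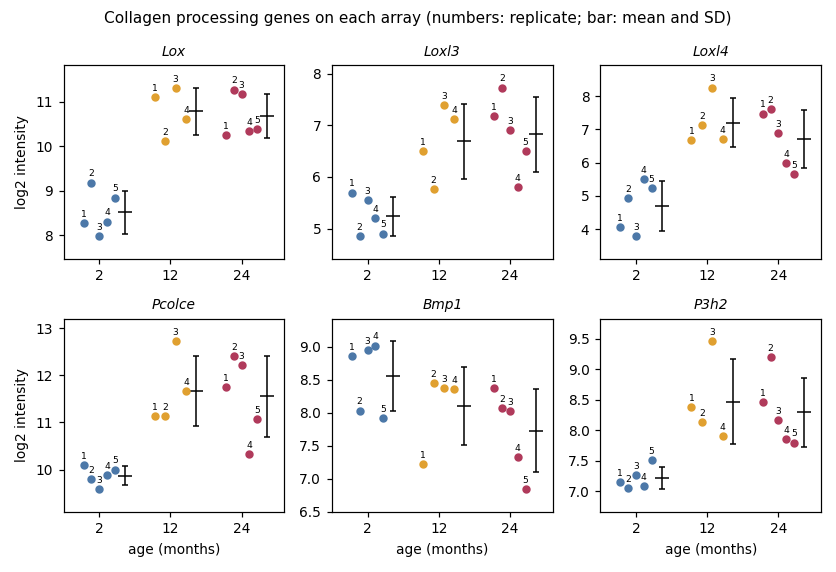
Log2 intensity of 6 genes that act on collagen, on each array by age in months, with replicate numbers beside the points and the mean and SD at the right of each group. Lox, Loxl3, Loxl4, Pcolce and P3h2 are higher on all middle-aged and aged arrays than on the young ones, and Bmp1 overlaps between ages.

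Of all genes, 3.05% were higher in aged and 1.75% in middle-aged than in young cells. Of 19 measured genes of chain modification and folding, 1 was higher and 0 lower in each comparison with young cells. It was P3h2, a prolyl 3-hydroxylase, with a change of 1.08 ± 0.29 (SE, limma adjusted p = 0.0494) in aged against young cells and 1.25 ± 0.31 (adjusted p = 0.0409) in middle-aged against young cells. The call in aged against young cells held in 11 of 28 alternative settings. The median change of the list was 0.09 in aged against young cells. Serpinh1, the collagen chaperone of the endoplasmic reticulum, averaged 9.87 ± 0.49 (young), 9.98 ± 0.43 (middle-aged) and 9.88 ± 0.29 (aged). P4ha1, a prolyl 4-hydroxylase subunit, averaged 9.58 ± 0.26 (young), 9.54 ± 0.19 (middle-aged) and 9.61 ± 0.38 (aged). For both, the ages overlapped and the change in aged against young cells was 0.01 and 0.04.

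Of 10 measured receptors and uptake genes, 1 was lower in aged against young cells and 1 higher in middle-aged against young cells. In the same comparisons and directions, 1.25% and 1.75% of all genes were called. Calcr, also on the satellite cell marker list, had log2 values of 8.02, 8.46, 8.46, 8.69 and 8.82 on young arrays 1 to 5, 8.39, 7.34, 6.98 and 7.58 on middle-aged arrays 1 to 4, and 5.92, 6.64, 7.44, 7.65 and 7.70 on aged arrays 1 to 5. Aged arrays all lay below all young ones. Its change was -1.42 ± 0.33 (SE, limma adjusted p = 0.0219) in aged against young cells, and the call held in 24 of 28 settings. Leaving out young array 3, 4 or 5, or aged array 2, raised the adjusted p above the threshold, to at most 0.059. Itga10, a collagen-binding integrin chain, changed by 0.85 ± 0.22 in middle-aged against young cells (adjusted p = 0.0483), a call that held in 12 of 28 settings. Itgb1, the shared integrin beta chain and the CD29 of the sort, had a change of -0.12 in aged against young cells, and Ddr2, a collagen-binding kinase, of 0.04.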

How the data were processed

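RNA of sorted cells was hybridized to 14 Affymetrix mouse arrays, whose number limits the precision. The deposited intensities are linear and come from RMA, per the submitters' processing notes (its version is not given in the sources used here). Their log2 was taken with no further normalization. Symbols come from the platform annotation; 42 of 42 collagen genes matched RefSeq by Entrez identifier, and Col28a1 and Col6a6 had no probe set of their own. Of 45101 probe sets, 34945 name 1 gene and 23887 passed the filter. Each gene was read from the brightest of its kept probe sets on average. All 14 arrays entered 1 limma fit (3.58.1, R 4.3.3) with age as the only factor, two-sided, Benjamini-Hochberg over 13579 genes. The fit was tested on simulated data.

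The members, classes, lists and array sets were chosen with earlier results of these data known. The rule for named genes gave values on every array for each called collagen gene and for the gene of each class with the smallest aged against young p, and named processing genes that were called plus 7 fixed ones. Same-numbered arrays of different ages did not deviate together (5 of 13 pairs above r = 0.1, median -0.06), so replicate numbers were not used. Alternatives changed the filter, probe set, normalization, log scale, variance model, weights, covariates, block and arrays.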

Additional observations from a re-analysis of the deposited data

Results flagged for a closer look

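In each age group, every measured collagen gene and chain pair was examined for an array that stood far from the rest, by Dixon's gap over the range. Of 141 groups, 9 held such an array, and chance alone gives about 1 in 20. In single genes these were Col13a1 on aged array 2 (4.17, the others 3.64 to 3.76), Col17a1 on young array 5 (5.42, the others 4.55 to 4.79) and Col20a1 on young array 4 (7.27, the others 6.78 to 6.82). Col2a1 on young array 3 stood at 5.38, against 4.31 to 4.59 on the others. Of the middle-aged arrays, Col1a2 on array 3 stood at 13.86 (the others 12.80 to 12.94), Col27a1 on array 2 at 6.98 (7.82 to 7.96) and Col9a1 on array 1 at 4.77 (5.48 to 5.59). Among pairs, Col4a5 minus Col4a4 was 1.06 on aged array 5 (the others -1.12 to -0.70), and Col6a3 minus Col6a1 was -3.58 on young array 3 (the others -2.76 to -2.63). None of these genes was called in aged against young or middle-aged against young cells.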

How the results depend on the processing

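Col11a1, Col12a1 and Col15a1 were called in aged against young cells in all settings in which they were measured (27, 28 and 28). Col8a1 was called in 27 of 28 and Col8a2 in 25 of 27, and Col8a2 was also lost at log2(value + 16) (1.13, adjusted p = 0.0614). Apart from the mean of probe sets, every setting read Col11a1 and Col12a1 from the same probe set. No setting used their other probe sets alone, which had limma adjusted p = 0.066 and 0.311. The all-array filter leaves Col11a1 unmeasured, so its 27 settings do not include that one. The count of 4 higher collagen genes in aged against young cells was 2 when a gene had to exceed the 40th percentile on all 14 arrays, which removes Col11a1 and Col8a2, and 7 with array weights. Leaving out 1 array gave 4 to 7, the 7 without aged array 4, which adds Col11a2, Col14a1 and Col6a3. The count of 1 lower gene was 2 with the mean of probe sets, quantile normalization, median centring, trended robust variance, array weights or set 1 alone, each adding Col26a1, and 3 with array set as a term, which also adds Col19a1. Leaving out 1 array gave 1 to 2, the 2 without young array 2 or 5. In middle-aged against young cells, the 3 higher genes were 5 with array weights, which adds Col1a2 and Col8a1, and the 0 lower genes were 1 with the mean of probe sets, median centring or only those 2 groups, 4 with array weights and 3 with array set as a term or set 1 alone; leaving out 1 array gave 0 to 1. The F test's 5 collagen genes were 3 with the all-array filter or the 3' minus 5' covariate, 10 with array weights, 9 with array set as a term and 8 in set 1 alone. Of all genes, 584 were called in aged against young cells, 976 with array set as a term, and 388 to 608 leaving out 1 array, the 388 without young array 3. With the replicate block the counts were 4 higher and 1 lower in aged against young and 3 and 0 in middle-aged against young cells, and 489 of all genes; it changed no collagen call, and ended the calls of Pcolce, Loxl3, Loxl4, P3h2 and Itga10 in middle-aged against young and of P3h2 in aged against young cells. Unless stated, the cause was not tested.

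Signs turned in the changes named here, and only that of Col1a2 in middle-aged against young cells passed in any setting (10 of 28). With probe sets of unshared sequence that change was -0.018, that of Col1a2 in aged against young cells -0.30, and that of Col19a1 in middle-aged against young cells 0.11. For aged against middle-aged cells, Col11a1 was 0.037 with the mean of probe sets, 0.067 with array weights, 0.074 with the covariate and 0.098 in set 1 alone, and leaving out 1 array gave -0.24 to 0.19. Col12a1 was -0.075 with quantile normalization and -0.0035 at log2(value + 16), and -0.50 to 0.54 leaving out 1 array. Col26a1 was 0.012 with array set as a term. Leaving out 1 array gave -0.23 to 0.43 for Col6a3 and -0.63 to 0.21 for Col8a2. Col23a1 in middle-aged against young cells was -0.16 in set 1 alone. In aged against young cells, leaving out 1 array gave -0.053 to 0.24 for Ddr2, -0.26 to 0.14 for Itgb1, -0.055 to 0.20 for P4ha1 and -0.17 to 0.12 for Serpinh1. Itgb1 was 0.066 with the covariate. P4ha1 was -0.024 with quantile normalization and -0.28 in set 1 alone. Serpinh1 was -0.045 with quantile normalization, -0.071 with array weights and -0.28 in set 1 alone.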
